A study of Hyphopichia burtonii with 8 samples.

Results

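HSP90 (HYPBUDRAFT_116403), HSP70 (HYPBUDRAFT_100794) and AHA1 (HYPBUDRAFT_148729) are 3 chaperone genes of the yeast Hyphopichia burtonii, taken by their locus tags from the 6166 genes measured in the series. RNA came from wild-type cells of the strain KJJ43, found in the Korean fermentation starter Nuruk. A preculture was diluted to OD600 0.6 and grown for 1 h in the control medium YPD (yeast extract, peptone, glucose), or in the same medium supplemented with NaCl at 1 M, with KCl at 1 M or with sorbitol at 1 M. Each of the 4 media had 2 libraries, 8 in all, called YPD 1 and YPD 2 and so on. The series asks how the transcriptome responds to high osmotic stress, and the salts were used at the molarity of sorbitol although they dissociate in water and sorbitol does not.

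Hsp90 is an abundant chaperone of the cytosol that brings client proteins, among them many kinases and receptors, to their active state in a cycle driven by ATP. Aha1 binds Hsp90 and speeds up its ATPase, and other co-chaperones (Sti1, p23, Cdc37, cyclophilins) load clients or slow the cycle. Hsp70 proteins bind unfolded stretches of newly made or damaged proteins, with J-domain proteins such as Ydj1 and Sis1 as partners, and pass some clients on to Hsp90. In Saccharomyces cerevisiae these genes share a transcriptional activator, the heat shock factor Hsf1, and several yeast genomes hold both constantly expressed and strongly inducible Hsp70 genes. Gene symbols in H. burtonii were given by the RefSeq annotation of another strain, NRRL Y-1933 (assembly Hypbu1), mostly after genes of other yeasts. The annotated gene lengths are 2132 nt for HSP90, 1962 nt for HSP70 and 1020 nt for AHA1. No genome position is printed, because the sources used here do not name the build behind the values.

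Levels are in FPKM, which divides fragments by gene length and library depth, so that levels of different genes can be set side by side. Differences between media are log2 differences of FPKM + 1 from a limma model over all tested genes, given as estimate ± standard error with the Benjamini-Hochberg adjusted p over 5765 tested genes, with 0.05 as the limit for a call. Only called genes are described with the verbs rose and fell. Where a call is said to be lost without a library, that single library was left out and the fit repeated. All 3 genes were far above the lower limit of 1 FPKM used for testing. The files hold no fragment counts. The spacing of low values put the relative depth of the libraries within a factor of 2.19, and by the same estimate the fewest fragments behind a value were about 289 for HSP70 (sorbitol 1), 1695 for AHA1 (KCl 2) and 10906 for HSP90 (NaCl 1). In bulk RNA, fewer cells that express a gene and less RNA of it per cell cannot be told apart.

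All 3 genes had their highest level in YPD and lower levels in each of the 3 solutes. HSP90, HSP70 and AHA1 fell in NaCl, where 11.5% of all tested genes fell, and in KCl, where 4.51% did. None of the 3 was called in sorbitol by limma, where 1.21% of all tested genes fell and 4.96% were called in either direction (3 of 3 were below 0 at an unadjusted p under 0.05, as were 636 of the 5765 tested genes). Mean FPKM in YPD was 5.88-fold, 2.99-fold and 1.73-fold that in NaCl, KCl and sorbitol for HSP90, 10.5-fold, 10.1-fold and 4.25-fold for HSP70 and 2.53-fold, 2.46-fold and 1.76-fold for AHA1. HSP70 thus differed more from YPD than HSP90 and AHA1 did in each solute, and its duplicates also lay farther apart than theirs in YPD, NaCl and sorbitol. In every solute library each of the 3 genes lay below both YPD libraries, a pattern seen in 9.58% of all tested genes (552 of 5765).

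**Figure D1:**
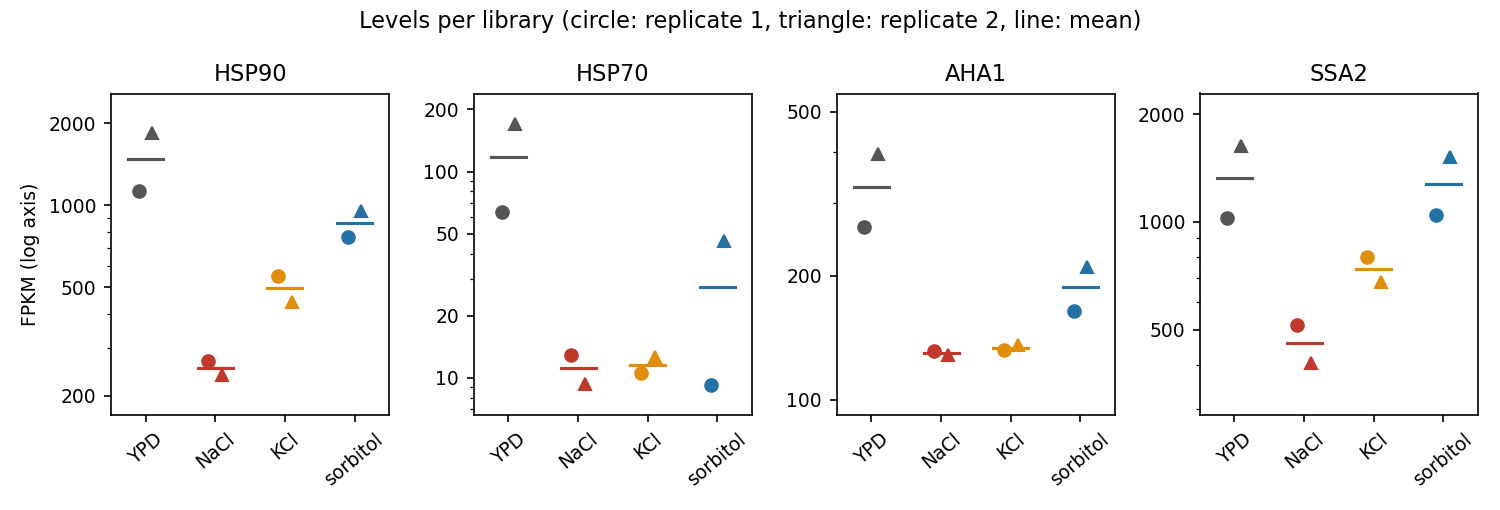
FPKM on a log axis in each of the 8 libraries for HSP90, HSP70, AHA1 and SSA2, a second Hsp70 gene shown for comparison (circle, replicate 1; triangle, replicate 2; line, mean of 2 libraries). HSP90 steps down from YPD over sorbitol and KCl to NaCl, AHA1 lies at 128 to 136 FPKM in all 4 salt libraries, and HSP70 in sorbitol is split between 9.19 and 45.8 FPKM.

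HSP90 stood at 1127 and 1839 FPKM in the YPD libraries, at 764 and 954 in sorbitol, at 549 and 443 in KCl and at 268 and 237 in NaCl. The 4 media did not overlap and were ordered YPD, sorbitol, KCl, NaCl. How many of all tested genes separate the 4 media was not counted. It fell in NaCl to 252 ± 21.5 FPKM, against 1483 ± 503 in YPD (means with SD, 2 libraries each), a log2 difference of -2.51 ± 0.23 (adjusted p = 1.64e-04), which was the 13th largest fall of all tested genes. In KCl it fell to 496 ± 75.1 FPKM (-1.54 ± 0.23, adjusted p = 0.00762). Both calls held when any 1 of the 8 libraries was left out, with adjusted p values up to 0.0024 in NaCl and 0.0389 in KCl.

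In sorbitol HSP90 averaged 859 ± 135 FPKM (-0.75 ± 0.23, 95% interval -1.29 to -0.22) and was not called (adjusted p = 0.101), though it was with libraries scaled to equal sums (adjusted p = 0.0366) and with quantile normalization (adjusted p = 0.049). Neighbours in the order of levels were separated unequally. HSP90 was lower in NaCl than in KCl (-0.97 ± 0.23, adjusted p = 0.0359; 3.99% of all tested genes were lower), but this call was lost without NaCl 1, NaCl 2, KCl 1 or KCl 2 (adjusted p between 0.0536 and 0.191). KCl and sorbitol were not called apart (-0.79 ± 0.23, 95% interval -1.33 to -0.25, adjusted p = 0.0944). They were called apart without YPD 1 or YPD 2, which leaves the KCl and sorbitol values unchanged. Such a change comes from the spread, which the model shares over the 4 media, and from the adjustment over genes. NaCl lay below sorbitol (-1.76 ± 0.23, adjusted p = 9.73e-04; 13.6% of all tested genes were lower), and this held when any 1 library was left out (adjusted p up to 0.00995).

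HSP90 moved from a place among the 205 most abundant genes in YPD (205th in YPD 1 and 150th in YPD 2 of 6166) to 633rd and 686th in the NaCl libraries. AHA1 ranked 602nd and 446th in YPD and 1125th and 1140th in NaCl. HSP70 was 1866th and 889th in YPD and 4547th and 4921st in NaCl. HSP90 made up 0.0844% and 0.134% of summed FPKM in the YPD libraries, against 0.0223% and 0.0196% in NaCl.

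AHA1, whose product activates the Hsp90 ATPase, stood at 263 and 395 FPKM in YPD, at 164 and 210 in sorbitol, at 132 and 136 in KCl and at 131 and 128 in NaCl. The salt libraries lay within 128 and 136 FPKM, below both sorbitol libraries and both YPD libraries, an order not counted over all tested genes. AHA1 fell from 329 ± 93.8 to 130 ± 2.16 FPKM in NaCl (-1.30 ± 0.20, adjusted p = 0.0025) and to 134 ± 2.66 FPKM in KCl (-1.26 ± 0.20, adjusted p = 0.00975). Both calls held when any 1 library was left out (adjusted p up to 0.02 and 0.0471). The level in sorbitol, 187 ± 32.4 FPKM, was not called (-0.79 ± 0.20, 95% interval -1.26 to -0.32, adjusted p = 0.0632) but was with libraries scaled to equal sums (adjusted p = 0.0339).

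Between solutes AHA1 had no call. NaCl and KCl differed by -0.04 ± 0.20 (95% interval -0.51 to 0.43, adjusted p = 0.93). With libraries scaled to equal sums it was 0.11, beside a median of 0.12 over all tested genes. NaCl lay below sorbitol by a log2 difference of -0.51 ± 0.20 (adjusted p = 0.0901). This was called without YPD 1 or YPD 2, which leaves the NaCl and sorbitol values unchanged and alters only the shared spread and the adjustment. KCl differed from sorbitol by -0.47 ± 0.20 (95% interval -0.94 to -0.01, adjusted p = 0.231).

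**Figure D2:**
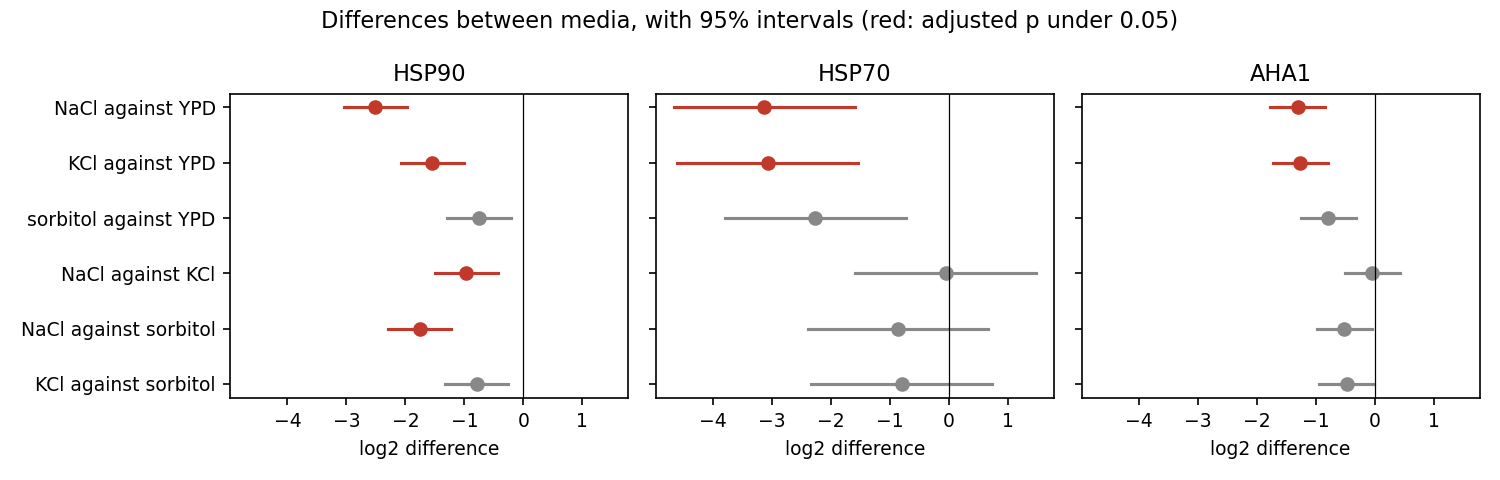
Log2 differences of HSP90, HSP70 and AHA1 in the 6 comparisons between media, with 95% intervals from limma (n = 2 libraries per medium; red, adjusted p under 0.05; grey, not called). HSP90 is called in 4 comparisons and HSP70 and AHA1 in 2 each, and the HSP70 intervals are the widest.

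AHA1 and HSP90 kept a similar ratio in YPD and sorbitol but not in NaCl. The FPKM of AHA1 divided by that of HSP90 in the same library was 0.233 and 0.215 in YPD, 0.215 and 0.220 in sorbitol, 0.240 and 0.306 in KCl and 0.492 and 0.541 in NaCl. Both NaCl libraries were above all others. HCH1, which in Saccharomyces cerevisiae encodes a short relative of Aha1, kept between 0.625 and 0.867 of the level of AHA1 in all 8 libraries, with the media overlapping. These ratios were looked at after the levels were known and were not tested.

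HSP70 stood at 63.4 and 171 FPKM in YPD, at 9.19 and 45.8 in sorbitol, at 10.5 and 12.5 in KCl and at 12.9 and 9.35 in NaCl. The 4 salt libraries and sorbitol 1 lay together between 9.19 and 12.9 FPKM, sorbitol 2 lay above them, and the YPD libraries were highest. HSP70 fell from 117 ± 75.9 to 11.1 ± 2.52 FPKM in NaCl (-3.13 ± 0.67, adjusted p = 0.0105) and to 11.5 ± 1.41 in KCl (-3.07 ± 0.67, adjusted p = 0.0254), the 6th and the 4th largest falls of all tested genes. These calls did not hold in every fit that left out 1 library. Such a fit also changes the spread shared over the 4 media and the adjustment over genes. The NaCl call was lost without YPD 2 (-2.42, adjusted p = 0.0643) or NaCl 2 (adjusted p = 0.058), and the KCl call without YPD 1, YPD 2, KCl 1 or KCl 2 (adjusted p between 0.0574 and 0.114).

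In sorbitol HSP70 averaged 27.5 ± 25.9 FPKM and was not called (-2.27 ± 0.67, 95% interval -3.80 to -0.73, adjusted p = 0.089). Without sorbitol 2 the difference was -3.37 and was called (adjusted p = 0.0315), and without sorbitol 1 it was -1.17. The solutes were not called apart for HSP70, with -0.86 ± 0.67 for NaCl against sorbitol and -0.81 ± 0.67 for KCl against sorbitol. NaCl and KCl differed by -0.06 ± 0.67 (95% interval -1.59 to 1.47, adjusted p = 0.969), an interval that holds differences of either sign of over 1 log2 unit. The width of this interval comes from the spread shared over the 4 media. Replicate 2 minus replicate 1 was 1.42 in YPD and 2.20 in sorbitol, with -0.43 in NaCl and 0.23 in KCl. The differences from sorbitol depended on which sorbitol library was used. For NaCl against sorbitol the value was -1.97 without sorbitol 1 (adjusted p = 0.0316) and turned to 0.24 without sorbitol 2 (adjusted p = 0.771), and for KCl against sorbitol it was -1.91 and turned to 0.30 (adjusted p = 0.103 and 0.807).

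SSA2 (HYPBUDRAFT_166080), named after a cytosolic Hsp70 of Saccharomyces cerevisiae, was the more abundant of these 2 Hsp70 genes in every library. SSA2 stood at 1023 and 1630 FPKM in YPD, 1043 and 1515 in sorbitol, 798 and 678 in KCl and 516 and 405 in NaCl. It fell in NaCl (-1.50 ± 0.26, adjusted p = 0.00414, and up to 0.0314 with any 1 library left out), was not called in KCl (-0.81 ± 0.26, adjusted p = 0.0846) and lay at -0.04 ± 0.26 in sorbitol (adjusted p = 0.937). HSP70 had 0.0619 and 0.105 of the level of SSA2 in the YPD libraries and 0.00881 to 0.0303 of it in the 6 solute libraries.

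Fragments of near-identical Hsp70 genes could have been split or shared between them, and the sources used here do not tell how the authors treated such fragments. With HSP70 and SSA2 taken as 1 gene (mean FPKM weighted by gene length), the log2 difference was -1.57 in NaCl (adjusted p = 0.00413), -0.89 in KCl (adjusted p = 0.0731) and -0.12 in sorbitol (adjusted p = 0.813). The summed level was also lower in NaCl than in sorbitol (-1.45, adjusted p = 0.0049). This way of counting was chosen after the values were seen.

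**Figure D3:**
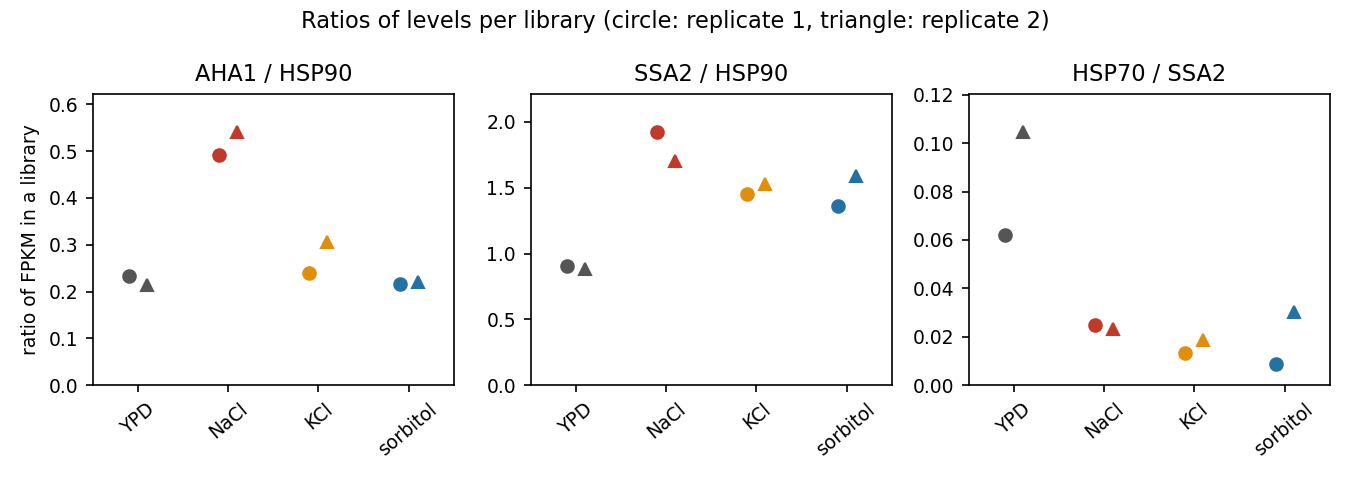
Ratios of FPKM within each of the 8 libraries for AHA1 over HSP90, SSA2 over HSP90 and HSP70 over SSA2 (circle, replicate 1; triangle, replicate 2; axes start at 0). AHA1 over HSP90 is highest in the 2 NaCl libraries, SSA2 over HSP90 is lowest in YPD (0.908 and 0.886), and HSP70 over SSA2 is highest in YPD.

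The 2 YPD libraries themselves stood apart for all 3 genes. YPD 2 was above YPD 1 by 0.71 log2 units for HSP90, 1.42 for HSP70 and 0.59 for AHA1, against a median absolute difference of 0.195 over all tested genes. By size these were the 310th, 24th and 528th of 5765 differences between the YPD libraries. In NaCl the same difference was -0.17 for HSP90, -0.43 for HSP70 and -0.03 for AHA1, and in KCl it was -0.31, 0.23 and 0.04, so the salt replicates lay closer together than those in YPD. The sorbitol replicates differed by 0.32 for HSP90, 0.35 for AHA1 and 2.20 for HSP70, the last being the 8th largest difference of all tested genes there. The fall of HSP90 in NaCl was larger than the gap between the YPD libraries, and its difference in sorbitol (-0.75) was about as large as that gap (0.71).

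**Figure D4:**
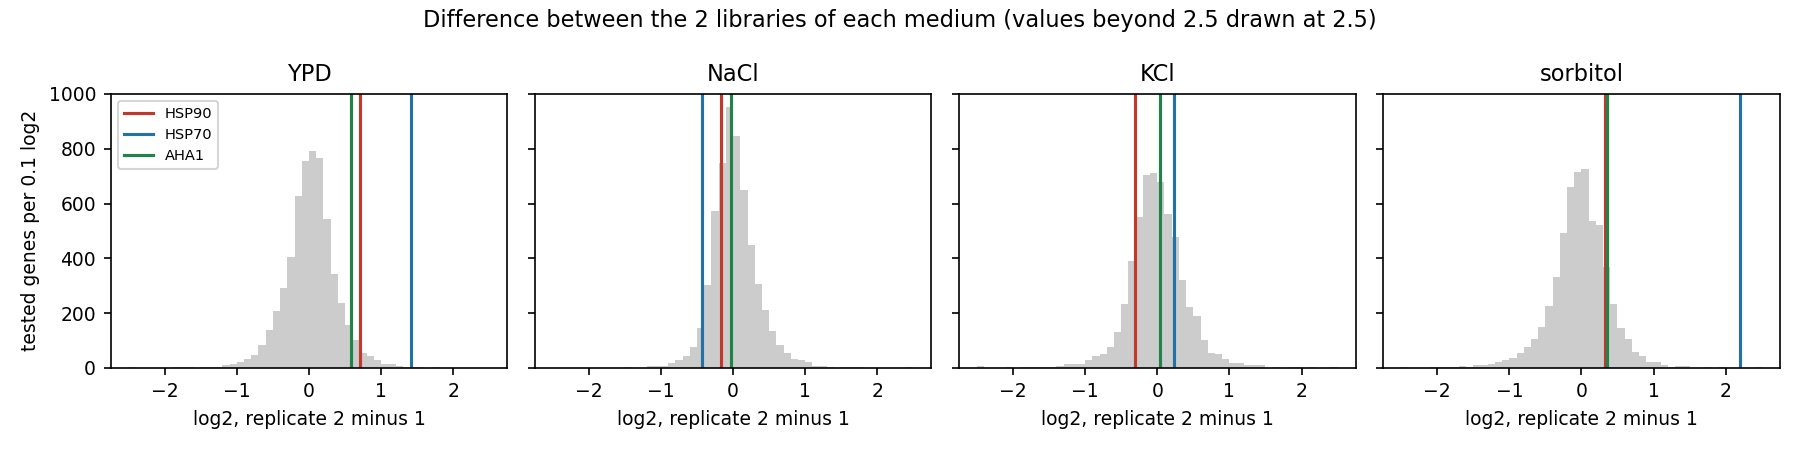
Histograms of the log2 difference between replicate 2 and replicate 1 over the 5765 tested genes in each medium, with HSP90, HSP70 and AHA1 marked by lines. In YPD all 3 genes lie to the right of the bulk (0.71, 1.42 and 0.59), and in sorbitol HSP70 lies at 2.20.

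The gap between the YPD libraries was not limited to the 3 genes. Of the 48 other chaperone genes and regulators in 7 lists, 36 were higher in YPD 2 than in YPD 1 (75.0%, against 53.9% of all tested genes), with a median difference of 0.19 against 0.03. All 9 genes of mitochondrial folding (median 0.53) and all 9 of the cytosolic chaperonin TRiC and prefoldin (median 0.22) were among them. The other 12 were lower in YPD 2, among them 5 of the 6 regulators (list median -0.12) and IRE1 (-0.53). The mitochondrial chaperonin gene HSP60 went from 522 FPKM in YPD 1 to 892 in YPD 2, and SSC1, the mitochondrial Hsp70, from 488 to 857. The salt duplicates of these genes also differed, mostly the other way. In NaCl 17 of the 48 were higher in replicate 2 (35.4%, against 49.4% of all tested genes), and in KCl 13 (27.1%, against 48.1%). Of the TRiC and prefoldin genes, 8 of 9 were lower in replicate 2 in NaCl and 9 of 9 in KCl. In sorbitol, 24 of the 48 were higher in replicate 2 (against 48.7% of all tested genes), with 5 of 11 genes of the Hsp70 system, HSP70 included. Among those that were, chosen after their values were seen, HSP104, a disaggregase, stood at 202 FPKM in sorbitol 2 against 102 in sorbitol 1, and SIS1, a J-domain partner of Hsp70, at 275 against 162. How these libraries came to differ was not tested.

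Of the 8 measured genes of the Hsp90 machine, 7 fell in NaCl (11.5% of all tested genes did) and 6 in KCl (4.51%). None was called in sorbitol by limma (1.21%), and 6 were below 0 there at an unadjusted p under 0.05, as were 636 of the 5765 tested genes. The list median was -0.91 in NaCl, -0.84 in KCl and -0.64 in sorbitol, beside 0.00, 0.01 and -0.04 over all tested genes. HSP90 and AHA1 are among the 8. In 7 of the 8 both YPD libraries were above all 6 solute libraries, against 9.58% of all tested genes. HCH1 stood at 191 and 247 FPKM in YPD, 93.2 and 95.1 in NaCl, 114 and 90.2 in KCl and 128 and 135 in sorbitol. It fell in NaCl (-1.20 ± 0.17, adjusted p = 0.0016) and KCl (-1.09 ± 0.17, adjusted p = 0.00888) and was not called in sorbitol (-0.72 ± 0.17, adjusted p = 0.0526). CPR6, a cyclophilin that binds Hsp90, fell by 0.99 ± 0.19 in NaCl and by 0.86 ± 0.19 log2 units in KCl, and SGT1, an adaptor of Hsp90, by 0.78 ± 0.14 and by 0.81 ± 0.14. SBA1, the p23 co-chaperone that slows the Hsp90 cycle, fell by 0.75 ± 0.18 in NaCl and by 0.79 ± 0.18 in KCl.

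CNS1, a co-chaperone with a TPR domain, was the gene of the list whose YPD libraries did not exceed all solute libraries. It stood at 168 and 164 FPKM in YPD, 94.4 and 93.7 in NaCl, 185 and 143 in KCl and 241 and 189 in sorbitol. CNS1 fell in NaCl (-0.82 ± 0.17, adjusted p = 0.00969) and was not called in KCl (-0.03, adjusted p = 0.93) or sorbitol (0.36, adjusted p = 0.228). Between the solutes it was lower in NaCl than in sorbitol (log2 difference -1.18 ± 0.17, held with any 1 library left out) and, like HSP90, lower in NaCl than in KCl (-0.79 ± 0.17). CDC37, which delivers kinases to Hsp90, was at 117 ± 3.23 FPKM in YPD and between 97.3 and 110 in the solute libraries and was not called (-0.13 in NaCl, -0.25 in KCl and -0.17 in sorbitol).

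Among these genes the NaCl calls of HCH1, CPR6 and SGT1 and the KCl call of HCH1 held when any 1 library was left out. The NaCl call was lost for SBA1 without YPD 2 or NaCl 1 (adjusted p up to 0.118) and for CNS1 without YPD 1 or NaCl 1 (up to 0.0577). In KCl the calls of SGT1 (up to 0.0599) and SBA1 (up to 0.126) were lost without YPD 1, YPD 2, KCl 1 or KCl 2, and that of CPR6 (up to 0.111) without YPD 2, KCl 1 or KCl 2. The call of CNS1 between NaCl and KCl was lost without NaCl 1, NaCl 2 or KCl 1 (up to 0.153).

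**Figure D5:**
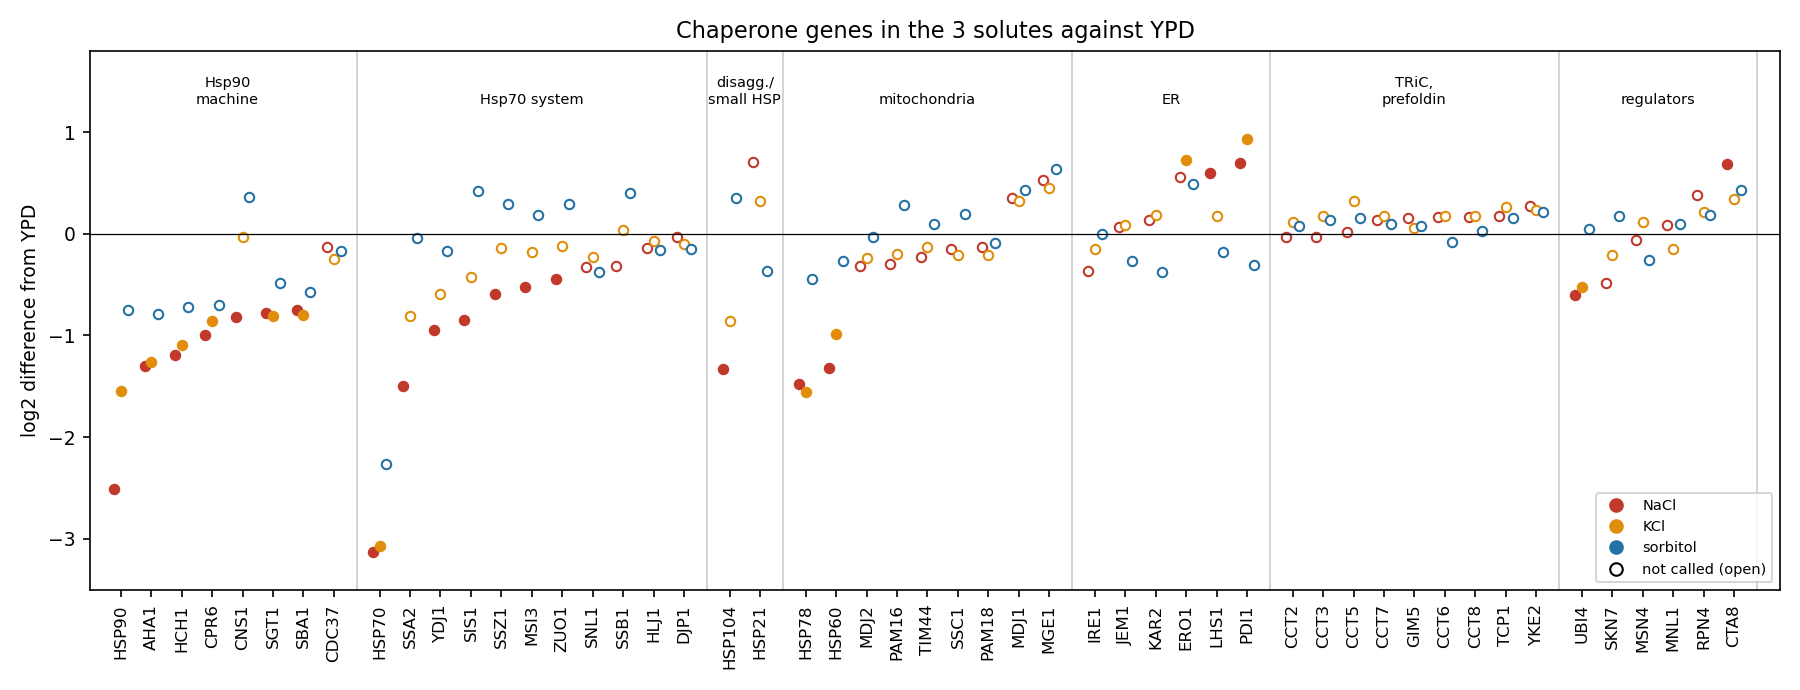
Log2 differences from YPD in NaCl, KCl and sorbitol for the 51 genes of the 7 lists, ordered within each list by the value in NaCl (filled, adjusted p under 0.05; open, not called). All genes of the Hsp90 machine and, apart from SSB1 in KCl, of the Hsp70 system lie below 0 in both salts, TRiC and prefoldin genes lie between -0.08 and 0.33, and PDI1 and ERO1 lie above 0 in both salts.

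Of the 11 measured genes of the cytosolic Hsp70 system, 7 fell in NaCl (11.5% of all tested genes did) and HSP70 alone in KCl (4.51%), with list medians of -0.52 and -0.18. None was called in sorbitol by limma (list median -0.04; 2 of 11 below 0 at an unadjusted p under 0.05, beside 636 of 5765). Beside HSP70 and SSA2, the J-domain genes YDJ1 (-0.95 ± 0.17) and SIS1 (-0.85 ± 0.24), the Hsp110 gene MSI3 (-0.52 ± 0.16) and both genes of the ribosome-associated complex, SSZ1 (-0.59 ± 0.13) and ZUO1 (-0.44 ± 0.13), fell in NaCl. YDJ1 went from 328 and 463 FPKM in YPD to 199 and 204 in NaCl. SSB1, the ribosome-bound Hsp70 and the most abundant of the list, stood at 5174 and 5089 FPKM in YPD and 4543 and 3759 in NaCl and was not called (-0.31, adjusted p = 0.254). HLJ1 (-0.14), DJP1 (-0.03) and SNL1 (-0.33) were not called in NaCl.

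The NaCl calls of SSA2 and YDJ1 held when any 1 library was left out. Those of SIS1 (adjusted p up to 0.157) and ZUO1 (up to 0.183) were lost without YPD 1, YPD 2, NaCl 1 or NaCl 2, that of MSI3 (up to 0.201) without any single YPD, NaCl or sorbitol library, and that of SSZ1 (up to 0.0825) without YPD 2 or NaCl 2. Of the 11 genes, 7 were lower in NaCl than in sorbitol (13.6% of all tested genes were). These were SSA2 (log2 difference -1.46 ± 0.26), SIS1 (-1.27 ± 0.24), SSZ1, YDJ1, ZUO1, SSB1 and MSI3. The calls of SSA2, SIS1, SSZ1 and ZUO1 held when any 1 library was left out, and those of YDJ1, SSB1 and MSI3 did not.

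HSP104 (-1.33 ± 0.30) and the mitochondrial chaperone genes HSP78 (-1.47 ± 0.22) and HSP60 (-1.32 ± 0.26) fell in NaCl. HSP78, the mitochondrial relative of Hsp104, also fell in KCl (-1.55 ± 0.22, adjusted p = 0.006), from 121 and 155 FPKM in YPD to 50.8 and 41.8. HSP60 fell in KCl as well (-0.99 ± 0.26, adjusted p = 0.0477). Both calls of HSP78 held when any 1 library was left out. HSP104 lost its call without YPD 2, NaCl 1 or NaCl 2 (adjusted p up to 0.0768), HSP60 in NaCl without NaCl 2 (0.0503) and in KCl without YPD 2 or any single NaCl, KCl or sorbitol library (up to 0.179). The other 7 mitochondrial folding genes were not called in any solute against YPD, and the small heat shock gene HSP21 was at 0.71 (adjusted p = 0.113) in NaCl.

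Among 6 genes of folding in the endoplasmic reticulum, 2 rose in NaCl (16.0% of all tested genes did), 2 rose in KCl (6.45%) and none fell in either salt (0 below 0 at an unadjusted p under 0.05 by limma). PDI1, the protein disulfide isomerase, rose from 359 ± 40.3 to 580 ± 17.0 FPKM in NaCl (0.69 ± 0.13, adjusted p = 0.00657) and to 686 ± 62.6 in KCl (0.93 ± 0.13, adjusted p = 0.00605), and was at 289 ± 12.6 in sorbitol (-0.31, adjusted p = 0.194). LHS1, an Hsp70 relative of the endoplasmic reticulum, rose in NaCl (0.59 ± 0.15) and ERO1, an oxidase that recharges Pdi1, in KCl (0.73 ± 0.18), with a value of 0.56 in NaCl (adjusted p = 0.0501). KAR2, the Hsp70 of that compartment, was not called in NaCl (0.14), KCl (0.19) or sorbitol (-0.38). PDI1 lost the NaCl call without YPD 1 or NaCl 1 (up to 0.0504) and the KCl call without YPD 1 (0.0503). LHS1 lost it without YPD 1, YPD 2 or NaCl 1 (up to 0.143) and ERO1 without YPD 1, YPD 2, NaCl 1, KCl 1 or KCl 2 (up to 0.209).

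None of the 9 genes of TRiC and prefoldin was called by limma in any solute against YPD (0 at an unadjusted p under 0.05 in each). Of all tested genes, 27.5% were called in NaCl, 11.0% in KCl and 4.96% in sorbitol. Among 6 regulators, CTA8, named after the heat shock factor gene of Candida albicans, rose in NaCl from 27.3 and 30.8 FPKM in YPD to 51.1 and 43.7 (0.69 ± 0.15, adjusted p = 0.0127, lost without YPD 1 or NaCl 1, up to 0.101). CTA8 stood at 36.2 and 38.0 FPKM in KCl (0.35, adjusted p = 0.194) and 38.2 and 40.6 in sorbitol (0.43, adjusted p = 0.134). UBI4, polyubiquitin, is listed with the regulators and has an annotated length of only 216 nt. The depth estimate took 190 to 210 nt off each gene length, depending on the library. How the length correction acts on so short a gene was not tested. UBI4 fell in NaCl (-0.60 ± 0.13) and KCl (-0.53 ± 0.13), and quantile normalization ended both calls. UBI4 also lost the NaCl call without YPD 1, NaCl 1 or NaCl 2 (up to 0.0885) and the KCl call without any single YPD, NaCl or KCl library (up to 0.234). RPN4, MSN4, SKN7 and MNL1 were not called in any solute against YPD.

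Over the 7 lists together, 18 of 51 genes fell in NaCl (27.5% of all tested genes were called, 11.5% lower) and 3 rose (16.0%), 10 fell in KCl (11.0% called, 4.51% lower) and 2 rose (6.45%), and none was called in sorbitol by limma (1.21% of all tested genes fell and 3.75% rose there; 9 list genes were below 0 and 3 above at an unadjusted p under 0.05, beside 636 and 803 of the 5765 tested genes). The 51 include HSP90, HSP70 and AHA1. Without these, 15 of 48 fell and 3 rose in NaCl, and 7 fell and 2 rose in KCl. With libraries scaled to equal sums the NaCl split of the 51 was 5 higher and 14 lower, and 7 list genes were called in sorbitol, all lower. Over all tested genes that scaling gave 1224 higher and 404 lower in NaCl, and 146 higher and 249 lower in sorbitol. Fewer list genes were called in NaCl when any single YPD or NaCl library was left out. In KCl fewer were called without any single YPD or KCl library. Over all tested genes the calls also became fewer in each of these fits. The 3 comparisons with YPD share its 2 libraries.

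Other settings ended some of these calls. Scaling to equal sums ended those of SBA1, SIS1, MSI3 and ZUO1 in NaCl. Testing all genes with no filter on low values ended those of SIS1, MSI3 and HSP104 in NaCl and of CPR6, SBA1, HSP60, ERO1 and UBI4 in KCl. Leaving out the intensity trend ended those of MSI3 and ZUO1 in NaCl and of HSP60, ERO1 and UBI4 in KCl, and a fit of YPD and KCl alone those of HSP60 and UBI4. Settings also added calls. HCH1 was called in sorbitol with a filter at 10 FPKM, equal sums or quantile normalization. ERO1 was called in NaCl with that filter, equal sums or a fit of YPD and NaCl alone. Some other uncalled list genes were also called under a setting.

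Against sorbitol, 15 of 51 genes were lower in NaCl (30.4% of all tested genes were called, 13.6% lower) and 3 higher (16.8%). Without HSP90, HSP70 and AHA1, 14 of 48 were lower and 3 higher. With libraries scaled to equal sums the split of the 51 was 12 higher and 8 lower, beside 1918 higher and 315 lower of all 5765 tested genes. Fewer list genes were called without NaCl 2, and so were fewer of all tested genes. KCl and sorbitol were called apart for 3 list genes (6.18% of all tested genes were called), with PDI1 higher in KCl (3.64% of all were) and HSP78 and UBI4 lower (2.53%). The call of PDI1 held when any 1 library was left out, that of UBI4 was lost without each of the 8 (up to 0.211), and that of HSP78 without KCl 1, KCl 2 or sorbitol 2 (up to 0.141). NaCl and KCl were called apart for 2 list genes (10.8% of all tested genes were called, 3.99% lower and 6.80% higher), HSP90 and CNS1, both lower in NaCl. Between KCl and sorbitol fewer list genes were called without KCl 1, KCl 2 or sorbitol 2. Between the salts fewer were called without any single NaCl or KCl library. Over all tested genes the calls also became fewer in each of these fits.

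Likeness to each gene was measured by Pearson's r of log2(FPKM + 1) over the 8 libraries, which fall into 4 media, and is given as a description. HSP70 and AHA1 were more alike (r = 0.964) than HSP90 and AHA1 (0.906) or HSP90 and HSP70 (0.832). Ranked among all tested genes, AHA1 was 3rd in likeness to HSP70, but AHA1 was 114th and HSP70 335th in likeness to HSP90. The genes with a symbol most like HSP90 were RAP1 (0.993), PGM2 (0.982), YDJ1 (0.980), CAP4 (0.970), HSP60 (0.961) and IMP2 (0.961). RAP1 (HYPBUDRAFT_86058) ran from 84.3 and 101 FPKM in YPD over 69.1 and 72.2 in sorbitol and 59.5 and 48.6 in KCl to 37.6 and 38.4 in NaCl, the same order of media as HSP90.

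Among genes with a symbol, those most like AHA1 were 4 of the Hsp90 machine, CPR6 (r = 0.981), SGT1 (0.977), SBA1 (0.971) and HCH1 (0.969), then HSP70 and the proteasome gene PRE9 (0.952). By the same rule those most like HSP70 were the cullin gene CDC53 (0.989), AHA1, SBA1 (0.960), the alanine transaminase gene ALT1 (0.954), CPR6 (0.953) and the checkpoint kinase gene CHK1 (0.950). CDC53 covered a far narrower range than HSP70, from 33.6 FPKM in sorbitol 1 to 48.7 in YPD 2.

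The genes listed next to the 3 in the order of the Hypbu1 annotation had smaller differences or differences of the other sign. Scaffolds could not be told apart, so beside means listed next to, and whether these genes adjoin on the genome was not checked. Beside HSP90, RAD14 and HYPBUDRAFT_102506 were not called in any solute against YPD (log2 differences of -0.01 to 0.35). Beside HSP70, HYPBUDRAFT_9207 was not called, and HYPBUDRAFT_9209 was at 9.58 and 5.79 FPKM in YPD and 3.86 and 4.18 in NaCl (-0.76 ± 0.24, adjusted p = 0.0481), a call lost without YPD 1 or any single NaCl, KCl or sorbitol library (up to 0.267). Beside AHA1, FDH3 rose in NaCl (0.67 ± 0.11, held with any 1 library left out) and KCl (0.64 ± 0.11). PUP1, a proteasome subunit gene listed on the other side, fell in KCl (-0.68 ± 0.12) and sorbitol (-0.62 ± 0.12) and was not called in NaCl (-0.32, adjusted p = 0.0905). The KCl calls of FDH3 (up to 0.0738; without YPD 1, YPD 2 or KCl 1) and PUP1 (up to 0.0757; without any single YPD or KCl library) and the sorbitol call of PUP1 (up to 0.148; without any single YPD, NaCl or sorbitol library) were lost.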

How the data were processed

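RNA of 8 libraries was sequenced after preparation with a strand-marking kit, per the labels' protocols. TopHat and Cufflinks are named in the submitters' processing notes; their versions, the genome build, the annotation, the handling of multiply mapped fragments and the strand setting were not given in the sources used here, so antisense reads cannot be told apart. Deposited files give 1 value per gene and state no unit. The values were read as FPKM computed by the authors, since Cufflinks writes FPKM and the values are not whole and sum to 1197308 to 1649003 per library. No 2 libraries held the same values (0 pairs).

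Of 6166 genes, 5765 had at least 1 FPKM in at least 2 libraries and were tested with limma 3.58.1 (R 4.3.3) on log2(FPKM + 1), 4 group means in 1 model with an intensity trend (4 residual degrees of freedom, 8.31 with the prior), after the script was tested on simulated data. P-values were adjusted per comparison by the Benjamini-Hochberg method. Whether replicates were separate cultures is not given, so p-values reflect only how far duplicate libraries differ, which may be technical. Relative depth came from the step between low values (80.3% to 88.8% of 111 to 143 low values per library lay within 0.15 of a whole step, against 27.0% to 39.3% of jittered ones). No interval was drawn from it.

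The 3 genes and the lists were chosen with earlier results of these data known. Of 95 list symbols, 51 matched a measured gene. Named were the 3 genes, the Hsp90 and Hsp70 lists, up to 4 called genes per other list and medium against YPD, uncalled genes listed for contrast, the 6 symbols most alike, and annotated neighbours (the last 3 kinds and the within-library ratios chosen after values were seen, except the 6 symbols). Alternatives covered the pseudocount, the filter, scaling, the trend, the samples fitted, a replicate block and leaving out each library. Sequences were not used here.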

Additional observations from a re-analysis of the deposited data

How the results depend on the processing

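The falls of HSP90 and AHA1 in NaCl and KCl kept their direction and call under all 9 planned settings that kept every library (log2 -2.54 to -2.34 and -1.55 to -1.53 for HSP90, -1.39 to -1.13 and -1.30 to -1.24 for AHA1). Without a filter on low values HSP70 lost its calls in NaCl (-3.13, adjusted p = 0.0513) and KCl (-3.07, adjusted p = 0.0927), HSP90 lost that between NaCl and KCl (-0.97, adjusted p = 0.0958), and chaperone calls became 6 (KCl against YPD), 0 (NaCl against KCl) and 1 (KCl against sorbitol). That setting tests 6166 genes. In the same order of comparisons it called 189, 347 and 136 of them higher and 196, 164 and 88 lower. Without an intensity trend HSP90 lost the NaCl against KCl call (-0.97, adjusted p = 0.054). There 1 chaperone call was left, beside 375 higher and 189 lower over all tested genes. Equal sums shifted the median of all genes in sorbitol against YPD from -0.04 to -0.24, and HSP90 (-0.98; -0.74 relative to that median) and AHA1 (-1.01; -0.77) were then called, with 7 chaperone calls in sorbitol and 5 in KCl against sorbitol. Equal sums also put that median at 0.16 in NaCl against YPD and 0.37 in NaCl against sorbitol. Over all tested genes that scaling gave 146 higher and 249 lower in sorbitol against YPD, and 534 and 78 in KCl against sorbitol. Quantile normalization called HSP90 in sorbitol (-0.90) and 2 chaperone genes, beside 163 higher and 93 lower of all tested genes. It turned the split of all calls in NaCl from 920 higher and 665 lower to 794 and 998. A filter at 10 FPKM gave 1 chaperone call in sorbitol (229 higher and 74 lower over all tested genes). A fit of only the 2 media gave 1 in KCl against sorbitol (44 and 46). With HSP70 and SSA2 as 1 gene, the KCl call was lost (-0.89) and NaCl fell below sorbitol (-1.45). For these changes the cause was not tested beyond what is stated.

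Deviations of same-numbered libraries correlated at -0.131 (YPD and NaCl) to 0.454 (KCl and sorbitol) over the 6 pairs of media. Between these lay 0.096 (NaCl and sorbitol), 0.261 (YPD and KCl), 0.301 (NaCl and KCl) and 0.305 (YPD and sorbitol). The labels do not pair the numbers and the correlations were mixed, so the numbers were not taken as pairs. With the replicate block HSP70 (-2.27, adjusted p = 0.0381) and AHA1 (-0.79, adjusted p = 0.0302) were called in sorbitol, and AHA1 in NaCl against sorbitol (-0.51, adjusted p = 0.0482). Chaperone calls were then 4 in sorbitol and 5 in KCl against sorbitol. Over all tested genes the block gave 365 higher and 151 lower in sorbitol, and 318 and 218 in KCl against sorbitol.

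Leaving out 1 library gave these ranges. Against YPD, HSP90 ranged from -2.86 to -2.16 (NaCl), -1.90 to -1.19 (KCl) and -1.11 to -0.40 (sorbitol), HSP70 from -3.84 to -2.42, -3.78 to -2.36 and -3.37 to -1.17, and AHA1 from -1.60 to -1.01, -1.56 to -0.97 and -1.08 to -0.50. In NaCl against KCl the ranges were -1.12 to -0.81 (HSP90), -0.27 to 0.16 (HSP70) and -0.06 to -0.02 (AHA1), in NaCl against sorbitol -1.92 to -1.60, -1.97 to 0.24 and -0.69 to -0.34, and in KCl against sorbitol -0.95 to -0.63, -1.91 to 0.30 and -0.65 to -0.30. Chaperone calls ranged from 11 to 22 (NaCl), 5 to 12 (KCl) and 0 to 1 (sorbitol) against YPD, 0 to 2 (NaCl against KCl), 9 to 20 (NaCl against sorbitol) and 1 to 4 (KCl against sorbitol). With 2 libraries per medium, a lone library left in a medium was assumed to vary like the others.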
